A study of Mus musculus with 30 samples.

Results

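Of the 54232 genes in the count table of this series, 10 genes of sphingolipid synthesis are described here: Sptlc1, Sptlc2, Sptlc3, Ormdl1, Ormdl2, Ormdl3, Cers2, Cers5, Cers6 and Degs1. They were taken as a named list by gene symbol, and all 10 passed the filter of more than 14 counts summed over the 30 libraries, which left 20139 genes for testing. The list was chosen by the measured expression differences between indoxyl sulphate (IS) and oxidised LDL (oxLDL), so the members' values in that contrast are given as a description without a test. RNA was sequenced from 3T3-L1 cells, a mouse pre-adipocyte line, which in all 6 groups had been held for 5 days in adipogenic medium containing insulin, dexamethasone, isobutylmethylxanthine and indomethacin. Control cells received no further agent, the pNaKtide group received 0.7 µM pNaKtide, the IS group 100 µM IS and the oxLDL group 50 µg/mL oxLDL, and the IS + pNaKtide and oxLDL + pNaKtide groups received the same doses in combination. The labels give 5 days of treatment, whereas the study's methods describe a shorter exposure. IS is a protein-bound uremic toxin, oxLDL is a modified lipoprotein that causes oxidant stress, and pNaKtide is a cell-permeant peptide built to block signalling through the Na,K-ATPase and Src. Each group had 5 libraries of a single cell line, and nothing in the labels says whether they came from separate cultures, so p-values measure the spread between these libraries alone.

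De novo sphingolipid synthesis starts when serine palmitoyltransferase joins serine to a fatty acyl-CoA in the endoplasmic reticulum. The enzyme pairs the subunit encoded by Sptlc1 with that of Sptlc2 or Sptlc3, the latter widening the range of sphingoid base lengths, and the ORMDL proteins hold its activity in check as ceramide accumulates. Ceramide synthases then attach an acyl chain whose length depends on the isoform: Cers2 prefers very long chains, while Cers5 and Cers6 prefer palmitoyl-CoA. Degs1 introduces the double bond that turns dihydroceramide into ceramide. In adipose tissue, ceramides made by Cers6 and Degs1 are known for their link to insulin resistance.

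Libraries held between 6945498 and 15159877 counts. The 8 adipocyte markers were detected in every library, with Adipoq at 478 to 1036 FPKM (fragments per kilobase of exon, scaled to library size) and Fabp4 at 444 to 684 FPKM, whereas of the 5 macrophage markers Ptprc had 0 counts in all libraries together, Adgre1 had 4 and Csf1r 65. The other macrophage markers were detected in every library, Cd14 at 2.15 to 4.36 FPKM and Lyz2 at 0.65 to 2.03 FPKM. Replicate 1 of the control group and replicate 4 of the IS group stood apart from their groups. On the first principal component, which held 64.4% of the variance over 12580 genes, control replicate 1 scored -25.8 against 6.47 to 29.9 for the other control libraries, and IS replicate 4 scored 28.2 against -36.7 to -23.2 for the other IS libraries. Control replicate 1 thus lay within the range of the other IS libraries, and IS replicate 4 within that of the other control libraries. The reason was not tested. Replicate 4 of oxLDL + pNaKtide, the library with the fewest counts, scored 67.5 against 14.5 to 33.2 for the rest of its group.

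Sptlc3, Cers6 and Ormdl1 carried the largest differences between groups, and their RefSeq promoters are shown for that reason, each running 5′ to 3′ from upstream of the annotated start into the first transcribed bases (GRCm38.p6). Capitals mark GCGTG or its reverse complement CACGC, the core of the xenobiotic response element bound by the aryl hydrocarbon receptor, a receptor that IS is known to bind. The same letters are one form of the core bound by hypoxia-inducible factors.
Sptlc3, chr2:139493663-139493962, plus strand: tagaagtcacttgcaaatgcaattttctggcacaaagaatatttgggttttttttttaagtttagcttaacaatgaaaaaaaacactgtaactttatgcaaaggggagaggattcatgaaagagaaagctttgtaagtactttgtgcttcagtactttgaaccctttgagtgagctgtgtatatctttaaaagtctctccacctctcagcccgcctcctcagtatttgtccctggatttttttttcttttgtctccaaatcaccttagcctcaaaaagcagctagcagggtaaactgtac
Cers6, chr2:68861191-68861490, plus strand: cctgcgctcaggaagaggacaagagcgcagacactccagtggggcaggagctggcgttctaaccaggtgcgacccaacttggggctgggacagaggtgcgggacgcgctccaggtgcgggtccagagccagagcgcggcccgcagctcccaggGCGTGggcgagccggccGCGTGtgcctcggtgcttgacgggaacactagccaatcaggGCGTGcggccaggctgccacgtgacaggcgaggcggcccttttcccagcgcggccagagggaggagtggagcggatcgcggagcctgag
Ormdl1, chr1:53296845-53297144, plus strand: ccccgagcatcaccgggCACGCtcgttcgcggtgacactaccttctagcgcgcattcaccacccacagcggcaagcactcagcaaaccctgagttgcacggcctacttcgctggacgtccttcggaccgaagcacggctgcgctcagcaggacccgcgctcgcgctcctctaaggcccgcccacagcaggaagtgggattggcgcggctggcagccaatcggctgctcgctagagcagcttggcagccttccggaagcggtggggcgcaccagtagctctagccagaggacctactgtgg
The Sptlc3 window held 0 matches on either strand, that of Cers6 held 3 and that of Ormdl1 held 1. GCGTG or CACGC occurred in 32.4% of all 32851 promoter windows of the same length of 300 bases, and in 8 of the 11 windows of the members, of which Cers2 has 2. The windows differed in base composition, with 37.3% G and C in Sptlc3, 70% in Cers6 and 65.7% in Ormdl1 against a median of 52.7% over all windows. Apart from Sptlc3, the member windows ran from 54.3% to 75%, all above that median. The part of base composition in the number of matches was not tested. A match is a run of letters and not evidence of binding.

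In the GENCODE vM21 annotation of GRCm38, Sptlc3 (ENSMUSG00000039092) lies on the plus strand at chr2:139493913-139637674, Cers6 (ENSMUSG00000027035) on the plus strand at chr2:68861441-69114282 and Ormdl1 (ENSMUSG00000026097) on the plus strand at chr1:53297095-53310309. Ormdl2 (ENSMUSG00000025353) lies on the minus strand at chr10:128817902-128821645 and Cers2 (ENSMUSG00000015714) on the plus strand at chr3:95314791-95323599. Counts are given per gene and do not separate its transcripts.

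Per unit of transcript length, Ormdl3 and Degs1 were the most abundant members, at 96.8 ± 6.94 and 85.9 ± 3.87 FPKM (mean ± SD over 30 libraries), and their ranges over libraries overlapped. Cers2 followed at 40.5 ± 2.75 FPKM and Cers5 at 23.3 ± 1.21 FPKM, each separate in every library from its neighbours in this order. Sptlc1 at 11.7 ± 0.80 FPKM, Ormdl2 at 11.2 ± 1.82 FPKM and Sptlc2 at 11.1 ± 0.53 FPKM did not separate from one another. Cers6 at 6.78 ± 2.07 FPKM, Sptlc3 at 4.23 ± 0.97 FPKM and Ormdl1 at 1.82 ± 0.65 FPKM were the lowest, and each overlapped the next higher gene in this order. Ormdl3 made up 88.1% of the summed ORMDL FPKM, with a range of 84.5% to 90.2% over the libraries. Of the summed FPKM of the 6 ceramide synthases, Cers2 held 44.0%, Cers5 25.3%, Cers4 22.2% and Cers6 7.46%, while Cers1 held 0.91% and Cers3 0.10%.

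**Figure D1:**
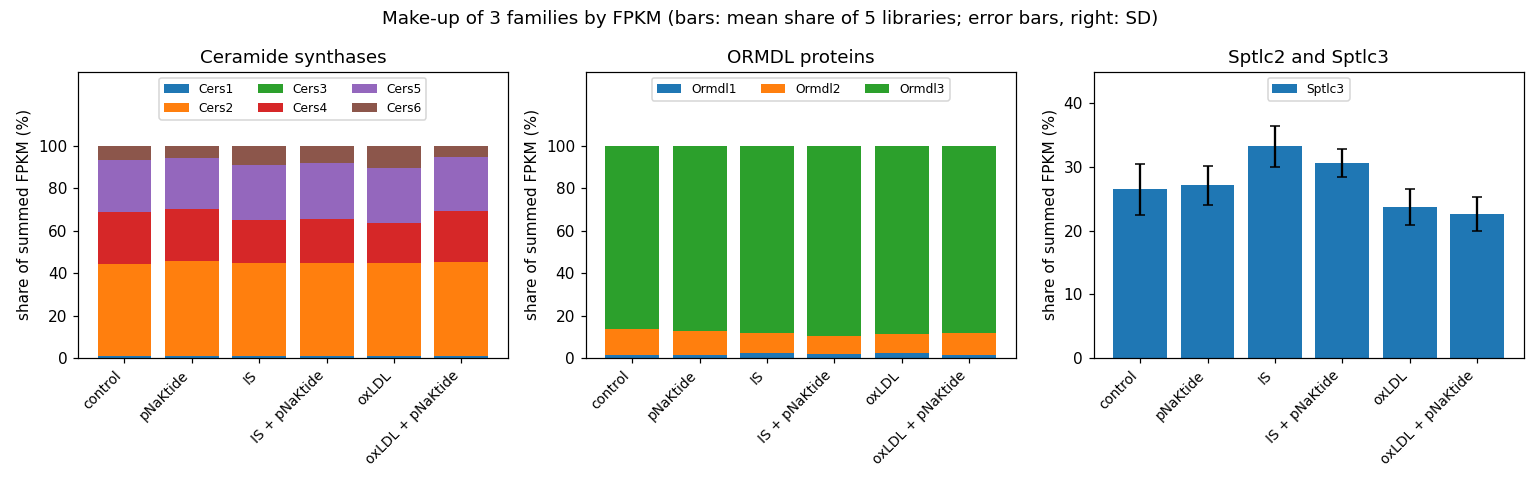
Mean share of summed FPKM, in percent, taken by each ceramide synthase (left), each ORMDL gene (middle) and Sptlc3 within the pair Sptlc2 and Sptlc3 (right, with SD), in the 6 groups of 5 libraries. The Cers6 segment was 10.4% in oxLDL and 5.13% in oxLDL + pNaKtide, Ormdl3 filled most of the ORMDL bar in every group, and the Sptlc3 share was highest with IS at 33.3%.

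The members fell into genes that stayed level over the 6 groups and genes that did not. The ratio of the highest to the lowest group mean was 1.05 for Sptlc2, 1.06 for Degs1, 1.09 for Sptlc1, 1.102 for Cers5, 1.12 for Cers2 and 1.157 for Ormdl3 on the scale of TMM-normalised CPM (counts scaled to a common library size). It reached 1.26 for Ormdl2, 1.70 for Sptlc3, 1.83 for Cers6 and 1.89 for Ormdl1, against a median of 1.37 over the 12541 genes with a mean of at least 2 CPM. Ormdl1, with 22 to 224 counts per library, Sptlc3, with 45 to 284, and Ormdl2, with 118 to 294, rested on the fewest reads of the members. Cers6 had 173 to 1468 counts per library and Ormdl3 1225 to 3753.

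**Figure D2:**
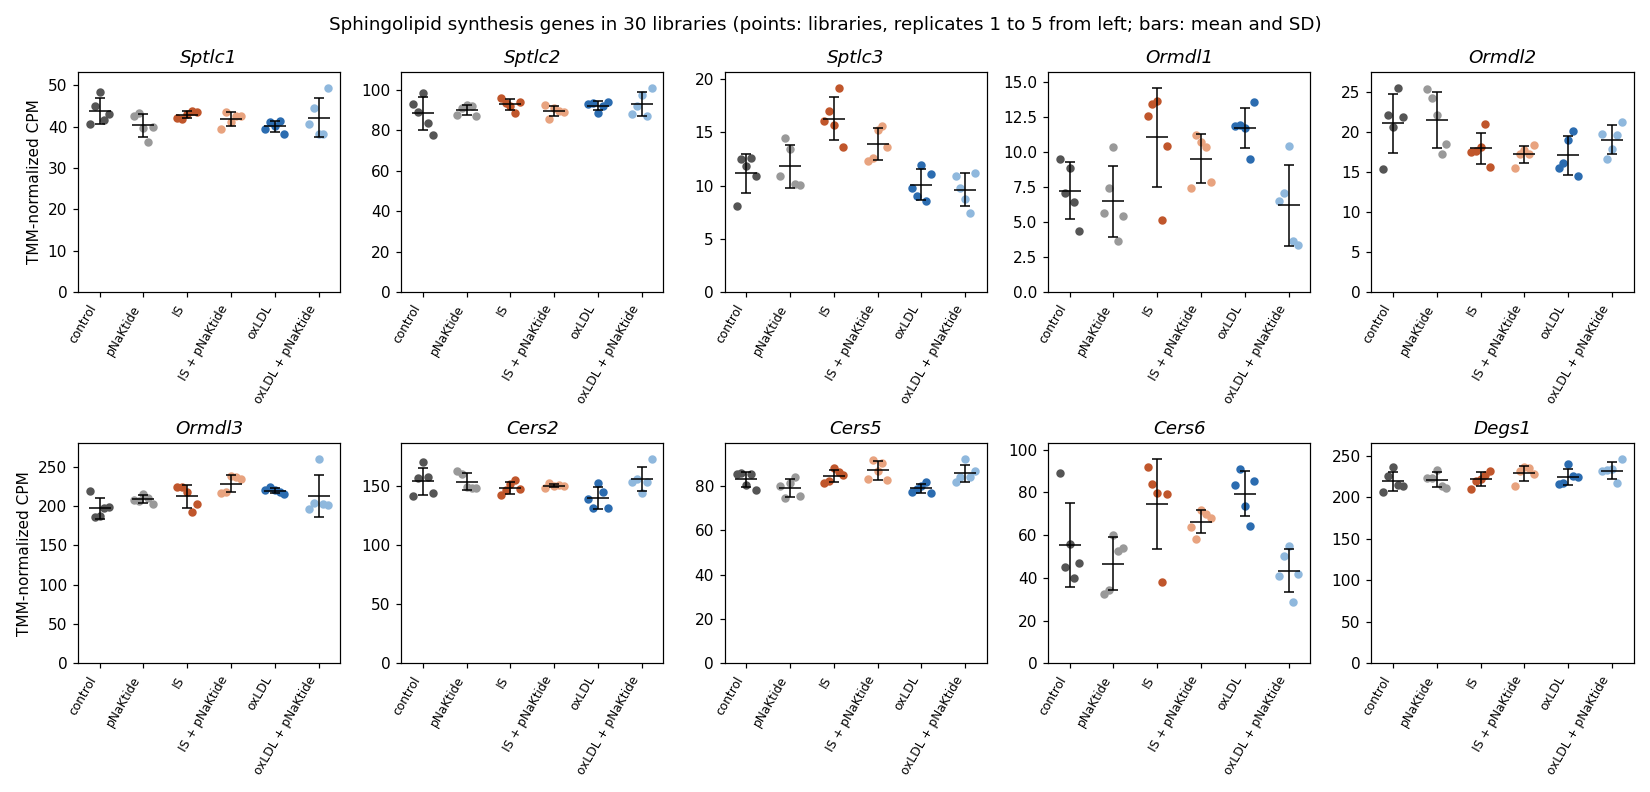
TMM-normalised CPM of the 10 genes in each of the 30 libraries by group, with points for replicates 1 to 5 from left to right and bars for the mean and SD. Sptlc3 is highest with IS (13.6 to 19.2 CPM), Cers6 and Ormdl1 are lowest with oxLDL + pNaKtide, and control replicate 1 and IS replicate 4 lie away from their groups in Cers6 at 89.0 and 38.0 CPM.

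The contrast between IS and oxLDL, by which the list was chosen, is described first. Sptlc3, the alternative large subunit of serine palmitoyltransferase, was the member that differed most. The IS libraries held 16.1, 17.0, 15.7, 19.2 and 13.6 CPM of Sptlc3, and the oxLDL libraries held 9.74, 9.05, 12.0, 8.54 and 11.1 CPM. Every IS library lay above every oxLDL library, and the estimated difference was 0.70 ± 0.13 on the log2 scale (SE), or 1.62-fold. In share, Sptlc3 made up 33.3 ± 3.22% of the summed FPKM of Sptlc2 and Sptlc3 with IS and 23.7 ± 2.83% with oxLDL (SD, n = 5). Its partner subunits differed little, with log2 differences of 0.10 for Sptlc1 and 0.01 for Sptlc2. The remaining 7 members had log2 differences between -0.09 for Cers6 and 0.10 for Cers5. Sptlc1 and Sptlc3 were the 2 of 10 members whose IS and oxLDL libraries did not overlap, and 1.49% of all genes tested showed such a separation. Without control replicate 1 and IS replicate 4, the Sptlc3 difference was 0.64, and with a correction for each library's trend of counts on GC content and gene length it was 0.79.

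The same pair of agents was also compared in cells that received pNaKtide, in libraries other than those of the selecting contrast. Sptlc3 and Cers6 were higher in IS + pNaKtide than in oxLDL + pNaKtide, and no member was lower at a Benjamini–Hochberg (BH)-adjusted p-value below 0.1. These 2 of 10 members compare with 18.5% of all genes tested that were higher, 15.5% that were lower and 34% called in either direction. Scaled by library totals alone, 8 members were higher and 0 lower, against 30.8% and 8.34% of all genes. Sptlc3 stood at 12.3, 12.6, 15.2, 15.6 and 13.7 CPM in the IS + pNaKtide libraries and at 10.9, 9.81, 8.71, 7.45 and 11.2 CPM in the oxLDL + pNaKtide libraries. The groups did not overlap, and the log2 fold change was 0.52 ± 0.13 (SE; edgeR BH-adjusted p-value = 0.00555). Cers6, the ceramide synthase of palmitoyl chains, stood at 63.9, 58.2, 71.7, 70.01 and 68.1 CPM with IS + pNaKtide and at 41, 50.2, 55.1, 28.6 and 41.9 CPM with oxLDL + pNaKtide. These groups did not overlap either, with a log2 fold change of 0.61 ± 0.21 (SE; edgeR BH-adjusted p-value = 0.0330). A separation of the groups was seen in these 2 members and in 19.5% of all genes tested. Ormdl1 had a fold change of similar size, 0.59 ± 0.27, but did not pass (edgeR BH-adjusted p-value = 0.109), and its libraries overlapped. It passed in 8 of 12 alternative analyses, among them DESeq2 at 0.58 (BH-adjusted p-value = 0.0829) and the omission of control replicate 1 and IS replicate 4 at 0.58 (edgeR BH-adjusted p-value = 0.0671), and stood at 0.08 with the correction for GC content and length (edgeR BH-adjusted p-value = 0.808). Of the remaining members, Ormdl2 at -0.14 and Ormdl3 at 0.10 were the farthest from 0 on the log2 scale. Summed FPKM of the adipocyte markers ran from 3828 to 4372 with IS + pNaKtide and from 4889 to 6117 with oxLDL + pNaKtide, and that of the 7 pre-adipocyte or fibroblast markers from 359 to 480 and from 482 to 770. Neither sum overlapped between the groups, and the part of these markers in the differences was not tested. Cidec, at a mean of 2802 FPKM over all libraries, held the largest part of the adipocyte sum. Col1a1 and Col3a1, at 251 and 216 FPKM, held most of the pre-adipocyte or fibroblast sum.

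These calls moved with the correction for GC content and length. With it, Sptlc3 fell to 0.21 (edgeR BH-adjusted p-value = 0.363) and Cers6 to 0.26 (edgeR BH-adjusted p-value = 0.162), so that neither passed. In their place Sptlc2 was lower by -0.38 (edgeR BH-adjusted p-value = 0.000819), Ormdl2 and Degs1 were lower by -0.30 and -0.17, and Ormdl3 was higher by 0.32, so that 4 members passed where 25.5% of all genes did. The GC content of the exons was 43.1% in Sptlc3, 39.7% in Ormdl1 and 44.7% in Cers6, below the median of 49.4% over the genes tested, and 56.6% in Ormdl3. Cers6, at 8875 bases, and Sptlc2, at 8115 bases, are long against a median exon length of 3105 bases. Leaving out oxLDL + pNaKtide replicate 4 brought Cers6 to 0.49 and lost its call, and the part of GC content and length in these differences was not tested.

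**Figure D3:**
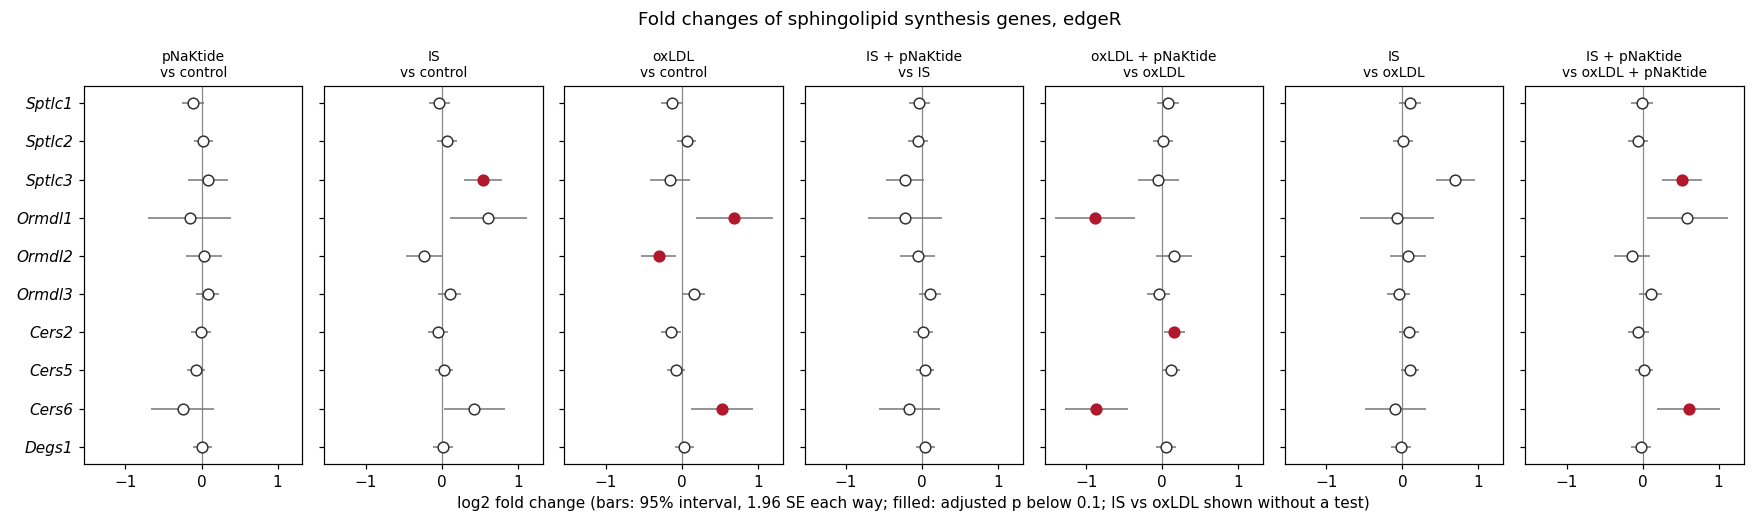
Log2 fold changes of the 10 genes in 7 comparisons (edgeR), with bars for the approximate 95% interval and filled points for a BH-adjusted p-value below 0.1. Filled points are Sptlc3, Cers6, Ormdl1, Ormdl2 and Cers2. The IS against oxLDL panel shows the contrast by which the list was chosen, so it carries no test and its bars are description only. Sptlc3 has the largest value in it, at 0.70.

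pNaKtide alone was compared with control to ask what the peptide does without a stressor. No member passed (0 of 10, against 0.00497% of all genes tested), and the edgeR BH-adjusted p-values ran from 0.889 to 0.995. Cers6 had the largest difference, -0.25 ± 0.21 on the log2 scale (SE), with an approximate 95% interval from -0.66 to 0.17. Its libraries held 32.3, 34.3, 59.9, 52.6 and 53.9 CPM with pNaKtide and 89.0, 44.9, 55.7, 39.9 and 47.0 CPM in control. The 2 sets overlapped, and without control replicate 1 and IS replicate 4 the difference was close to nil at -0.004. For Sptlc2, Cers2 and Degs1 the intervals lay within -0.14 and 0.15.

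Against control, the combined treatments moved no member past the threshold. In IS + pNaKtide 0 of 10 members passed, where 0.358% of all genes did. Ormdl3 came nearest, at 0.21 ± 0.08 on the log2 scale (SE; edgeR BH-adjusted p-value = 0.177), followed by Sptlc3 at 0.32 ± 0.13 and Ormdl2 at -0.29 ± 0.12, both with an edgeR BH-adjusted p-value of 0.20. Without control replicate 1 and IS replicate 4, 3 members passed in this comparison, where 32.4% of all genes did: Cers6 at 0.50 (edgeR BH-adjusted p-value = 0.0204), Ormdl3 at 0.25 (0.0133) and Ormdl2 at -0.39 (0.0110). In oxLDL + pNaKtide 0 of 10 members passed, against 5.2% of all genes, and the largest difference was that of Cers6 at -0.34 ± 0.21 (edgeR BH-adjusted p-value = 0.429).

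IS and oxLDL alone were each compared with control, and both comparisons share the control libraries with each other and their treated libraries with the contrast by which the list was chosen. With IS, Sptlc3 rose by 0.54 ± 0.13 on the log2 scale (SE; edgeR BH-adjusted p-value = 0.0470), from control values of 8.12, 12.5, 11.8, 12.6 and 10.9 CPM. It was the 1 of 10 members to pass, where 7.94% of all genes did, and the 1 member whose IS and control libraries did not overlap, where 1.81% of all genes separated. Ormdl1 at 0.62 ± 0.26 (edgeR BH-adjusted p-value = 0.144) and Cers6 at 0.43 ± 0.21 (edgeR BH-adjusted p-value = 0.196) did not pass. In bulk RNA, fewer cells that express a gene and less RNA per cell cannot be told apart. The adipocyte marker sum ran from 3374 to 4497 FPKM with IS (median 3779) and from 4035 to 5585 FPKM in control (median 5306), and the pre-adipocyte or fibroblast sum from 354 to 612 FPKM (median 398) and from 586 to 769 FPKM (median 686), and their part in the result was not tested.

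The result with IS depended on control replicate 1 and IS replicate 4. IS replicate 4 held the highest Sptlc3 value of its group, 19.2 CPM, and the lowest Cers6 and Ormdl1 values, 38.0 and 5.17 CPM against 79.2 to 91.8 CPM and 10.4 to 13.6 CPM in the other IS libraries. Control replicate 1 held the lowest Sptlc3 value of its group, 8.12 CPM, and the highest Cers6 and Ormdl1 values, 89.0 and 9.52 CPM. Without both, 5 members passed, where 45.4% of all genes did: Cers6 at 0.83 (edgeR BH-adjusted p-value = 0.000252), Ormdl1 at 0.90 (0.00578), Sptlc3 at 0.38 (0.0153), Ormdl3 at 0.18 (0.0651) and Ormdl2 at -0.39 (0.00690). With all libraries kept and the correction for GC content and length, Sptlc3 stood at 0.30 (edgeR BH-adjusted p-value = 0.238), and Ormdl2 was the 1 member called, at -0.38 (edgeR BH-adjusted p-value = 0.0969), where 3.98% of all genes were. Without the correction, the Sptlc3 call was also lost when any 1 of control replicates 2 and 5 or IS replicates 1, 2 and 3 was left out, with log2 fold changes of 0.53 to 0.59. The Sptlc3 call was lost as well when the 2 groups were fitted alone, at 0.55 (edgeR BH-adjusted p-value = 0.256).

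With oxLDL, Ormdl1 and Cers6 rose and Ormdl2 fell, while Sptlc3 stood at -0.15 ± 0.13 (edgeR BH-adjusted p-value = 0.421). These 3 of 10 members compare with 36% of all genes called, of which 18.1% were higher and 18% lower. Scaled by library totals alone, 5 members were higher and 0 lower (24.6% and 11.3% of all genes), and with the correction for GC content and length 1 was higher and 5 were lower (8.26% and 11.5%). Ormdl1, a brake on serine palmitoyltransferase, held 11.9, 11.9, 11.7, 9.51 and 13.5 CPM with oxLDL and 9.52, 7.03, 8.88, 6.44 and 4.35 CPM in control, a log2 fold change of 0.69 ± 0.26 (SE; edgeR BH-adjusted p-value = 0.0476). The groups met at the lowest oxLDL and highest control library. Cers6 held 83.7, 90.8, 73.6, 64.1 and 85.3 CPM with oxLDL, a log2 fold change of 0.52 ± 0.21 (SE; edgeR BH-adjusted p-value = 0.0598). Control replicate 1, at 89.0 CPM, lay among the oxLDL libraries, and the other 4 control libraries lay below all of them. Ormdl2 held 15.5, 16.1, 19.0, 20.1 and 14.5 CPM with oxLDL and 15.3, 22.1, 20.5, 25.4 and 21.8 CPM in control, a log2 fold change of -0.31 ± 0.12 (SE; edgeR BH-adjusted p-value = 0.0549). No member separated fully between oxLDL and control, where 8.35% of all genes did. The adipocyte marker sum ran from 3759 to 5340 FPKM with oxLDL, with a median of 4122 against 5306 in control and overlapping ranges. The pre-adipocyte or fibroblast sum ran from 473 to 540 FPKM (median 535, against 686 in control), below every control library, and the part of these markers was not tested.

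The annotation bears on the ORMDL values. Of the 1670 exon bases of Ormdl2, 1114 also lie in exons of Dnajc14 on the opposite strand, and the strand setting of the counting is not given in the sources used here, so the Ormdl2 values are uncertain. Ormdl1 shares 411 of its 4711 exon bases with Gm28778 on the same strand. Without control replicate 1 and IS replicate 4 the oxLDL changes were 0.81 for Ormdl1, 0.76 for Cers6 and -0.40 for Ormdl2, all called, and Ormdl3 at 0.19 and Cers2 at -0.17 passed as well, so that 5 members passed where 47.6% of all genes did. With the correction for GC content and length, Ormdl1 stood at 0.15 (edgeR BH-adjusted p-value = 0.603) and Cers6 at 0.23 (edgeR BH-adjusted p-value = 0.220), neither called, while Sptlc3 stood at -0.49 (edgeR BH-adjusted p-value = 0.0341), Ormdl2 at -0.50 (edgeR BH-adjusted p-value = 0.0164) and Ormdl3 at 0.41 (edgeR BH-adjusted p-value = 0.0202). The Ormdl1 call was lost without control replicate 4 or 5 or oxLDL replicate 5 (0.55 to 0.65), and those of Cers6 (0.43 to 0.50) and Ormdl2 (-0.29 to -0.23) without any 1 of control replicates 2, 4 and 5 and oxLDL replicates 1, 2 and 5.

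With TMM scaling and all libraries kept, adding pNaKtide to oxLDL gave the largest changes among the members. This comparison shares the oxLDL libraries with the selecting contrast. Cers6 fell to 41, 50.2, 55.1, 28.6 and 41.9 CPM, below all 5 oxLDL libraries, and its log2 fold change was -0.87 ± 0.21 (SE; edgeR BH-adjusted p-value = 0.00147). Ormdl1 fell to 6.49, 7.07, 10.4, 3.64 and 3.32 CPM, with a log2 fold change of -0.89 ± 0.27 (SE; edgeR BH-adjusted p-value = 0.00816). Its replicate 3, at 10.4 CPM, reached into the oxLDL range. Cers2, the ceramide synthase of very long chains, rose by 0.16 ± 0.07 (SE; edgeR BH-adjusted p-value = 0.0596), and turned to -0.065 when libraries were scaled by their totals alone. The Cers2 libraries held 154, 156, 144, 153 and 172 CPM with oxLDL + pNaKtide and 139, 131, 152, 145 and 131 CPM with oxLDL, and overlapped. In this comparison 1 member was higher and 2 were lower, against 22.1% and 26.1% of all genes tested, so that 3 of 10 members were called where 48.3% of all genes were. The split turned with the scaling: by library totals alone 0 members were higher and 7 lower (13.4% and 38.1% of all genes), and with the correction for GC content and length 6 were higher and 2 lower (19.3% and 17.7%). Cers6 was the 1 member whose groups did not overlap, and 28.4% of all genes separated in this way. Sptlc3 stood at -0.05 ± 0.14 (edgeR BH-adjusted p-value = 0.793), and Sptlc2 and Degs1 at 0.01 and 0.05.

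With the correction for GC content and length, Cers6 remained called at -0.39 (edgeR BH-adjusted p-value = 0.0213) and Ormdl1 did not, at -0.18 (edgeR BH-adjusted p-value = 0.480). The correction also brought Sptlc2 to 0.45 (edgeR BH-adjusted p-value = 3.9e-05), Sptlc3 to 0.36 (0.0771) and Ormdl3 to -0.39 (0.00605), so that 8 members passed, where 37% of all genes did, while Cers2 at 0.11 (0.135) no longer did. The Cers2 call was also lost without oxLDL replicate 2 or 5 or oxLDL + pNaKtide replicate 5, at 0.13 to 0.14. Summed FPKM of the adipocyte markers ran from 3759 to 5340 with oxLDL and from 4889 to 6117 with oxLDL + pNaKtide, and that of the 7 pre-adipocyte or fibroblast markers from 473 to 540 and from 482 to 770. The part of either marker list in these results was not tested.

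**Figure D4:**
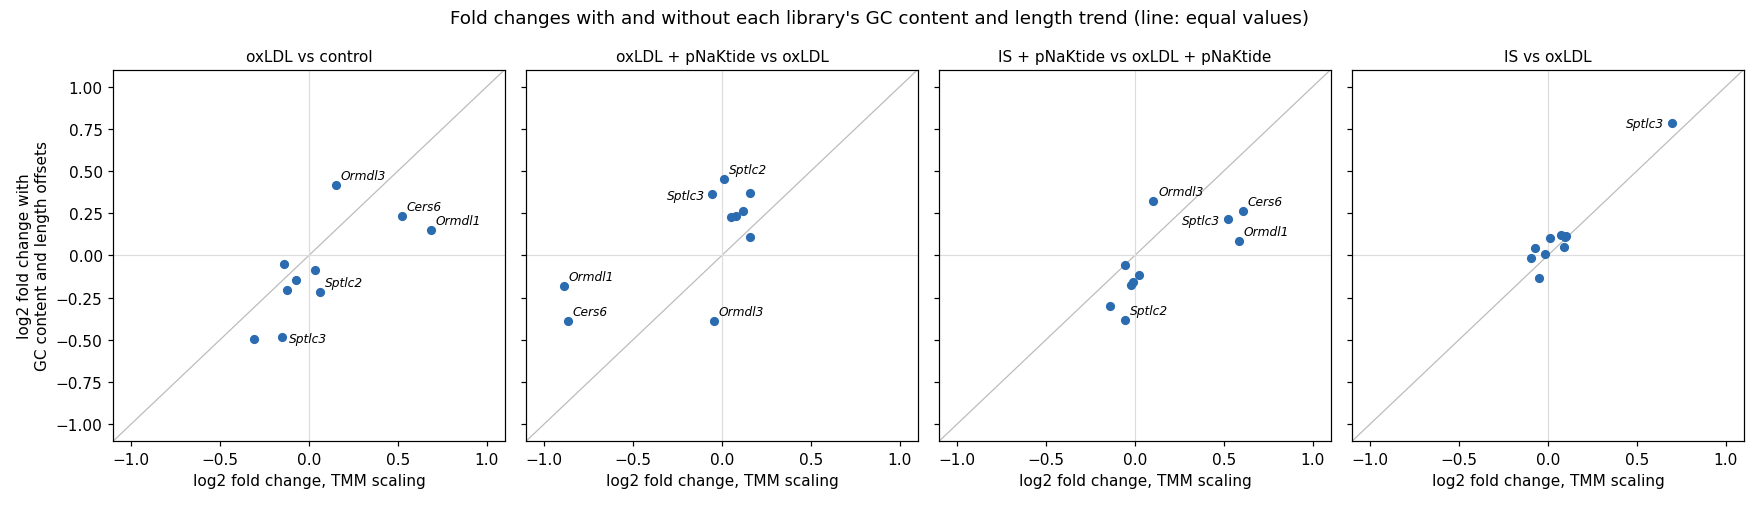
Log2 fold changes of the 10 genes with TMM scaling (horizontal axis) and with offsets for each library's trend on GC content and gene length (vertical axis) in 4 comparisons, with a line of equal values. Ormdl1 and Cers6 move towards 0 in the first 3 panels (oxLDL against control, oxLDL + pNaKtide against oxLDL, and the combined treatments) and Sptlc2 and Ormdl3 lie farther from it, while Sptlc3 stays at 0.70 and 0.79 in IS against oxLDL.

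Adding pNaKtide to IS moved no member past the threshold (0 of 10, where 0% of all genes passed with edgeR). At an unadjusted p-value below 0.05 edgeR held 0 members and 564 genes, and DESeq2 called 0 members and 14 genes. Sptlc3 stood at -0.23 ± 0.13 on the log2 scale (SE), with an approximate 95% interval from -0.47 to 0.02, Ormdl1 at -0.23 ± 0.25 and Cers6 at -0.17 ± 0.21. The IS + pNaKtide and IS libraries of Sptlc3 overlapped, at 12.3 to 15.6 and 13.6 to 19.2 CPM. Without control replicate 1 and IS replicate 4 the differences were -0.17 for Sptlc3, -0.39 for Ormdl1 and -0.33 for Cers6, none called.

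The change with pNaKtide was also set side by side for the 2 stressors. The difference between these changes contains the IS against oxLDL contrast by which the list was chosen, so it is given for the members as a description. Cers6 changed by -0.87 with oxLDL and by -0.17 with IS, a difference of -0.70 ± 0.29 (SE). Without control replicate 1 and IS replicate 4 the difference was -0.53, and with the correction for GC content and length it was -0.28. Ormdl1 had a difference of -0.66 ± 0.37 and Sptlc3 one of 0.17 ± 0.19. With the correction for GC content and length that of Ormdl1 was -0.04. The Sptlc3 difference ran from -0.02, scaled by library totals alone, to 0.58, with the correction and a term for replicate number.

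The other genes of the pathway were read from 7 lists with 64 genes, of which 52 were tested. Between IS + pNaKtide and oxLDL + pNaKtide, 18 of the 52 were higher and 9 lower (51.9% called, against 34% of all genes tested), with a median log2 fold change of 0.01 against 0.05 over all genes. For oxLDL + pNaKtide against oxLDL, 13 were higher and 20 lower (63.5% against 48.3% of all genes), with a median of -0.07 against -0.09 over all genes. With oxLDL against control 14 were higher and 15 lower (55.8% against 36% of all genes), and with IS against control 4 were higher and 4 lower (15.4% against 7.94%). The share over all genes depends on the filter. Among 14522 genes kept by a stricter expression filter (filterByExpr), 49.9%, 65.9%, 51.9% and 17.1% were called, in the same order of comparisons. The pathway genes were not counted under that filter. With the correction for GC content and length, 10 were higher and 10 lower between the combined treatments (38.5% called, against 25.5% of all genes), and 19 and 12 for oxLDL + pNaKtide against oxLDL (59.6% against 37%). With it, 4 were higher and 12 lower with oxLDL against control (30.8% against 19.8%), and 2 and 0 with IS against control (3.85% against 3.98%). Scaled by library totals alone, 26 were higher and 4 lower between the combined treatments (30.8% and 8.34% of all genes). In that scaling 9 were higher and 29 lower for oxLDL + pNaKtide against oxLDL (13.4% and 38.1%). It gave 17 and 11 with oxLDL against control (24.6% and 11.3%), and 10 and 2 with IS against control (10.6% and 2.07%). When control replicate 1 and IS replicate 4 were left out, 14 were higher and 17 lower with IS against control (59.6% called, against 45.4% of all genes), 15 and 16 with oxLDL against control (59.6% against 47.6%), and 13 and 13 with IS + pNaKtide against control (50% against 32.4%), where 1 of the 52 was called with all libraries kept (1.92% against 0.358%). pNaKtide alone and the addition of pNaKtide to IS called 0 of the 52.

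Among the rest of the de novo route, Kdsr, which reduces the first product of serine palmitoyltransferase, was called where Cers6 was between the combined treatments, with oxLDL and on adding pNaKtide to oxLDL, and also with IS and with oxLDL + pNaKtide against control, where Cers6 was not. With the correction for GC content and length it was not called with oxLDL, at -0.08 against 0.40 without the correction (edgeR BH-adjusted p-value = 0.553), nor with IS, at 0.08 against 0.44 (edgeR BH-adjusted p-value = 0.598). With control replicate 1 and IS replicate 4 left out it stood at 0.48 with oxLDL, 0.65 with IS and -0.40 with oxLDL + pNaKtide against control, and was called in each. Kdsr stood at 24.5 ± 1.87 CPM with IS + pNaKtide, 25.7 ± 1.959 CPM with oxLDL and 13.7 ± 3.14 CPM with oxLDL + pNaKtide (SD, n = 5). Its log2 fold change was -0.89 ± 0.15 for oxLDL + pNaKtide against oxLDL (SE; edgeR BH-adjusted p-value = 3.69e-05), and -0.22 with the correction for GC content and length (edgeR BH-adjusted p-value = 0.0385). Cers4, a ceramide synthase that is no member of the list but at 20.6 FPKM came close to Cers5 in abundance, moved the other way. It stood at 202 ± 14.1 CPM with oxLDL and 283 ± 30.2 CPM with oxLDL + pNaKtide, a log2 fold change of 0.48 ± 0.09 (SE; edgeR BH-adjusted p-value = 0.000132) that the correction raised to 1.13 (edgeR BH-adjusted p-value = 0.000242). In the make-up of the ceramide synthases, the Cers6 share was 10.4 ± 1.63% with oxLDL and 5.13 ± 1.26% with oxLDL + pNaKtide, and the Cers4 share 19.0 ± 0.74% and 24.1 ± 1.89% (SD, n = 5).

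Past ceramide, B4galt5, the lactosylceramide synthase of the glycosphingolipid branch, fell by 0.92 on the log2 scale when pNaKtide was added to oxLDL (SE 0.16; edgeR BH-adjusted p-value = 4.53e-05). Of the 5 tested genes of that list, 3 fell and 0 rose, and these and the following counts stand against 22.1% of all genes that rose and 26.1% that fell in this comparison. Of the 10 tested genes of ceramide and sphingosine 1-phosphate turnover, 1 rose and 4 fell: Asah1, the lysosomal acid ceramidase, changed by -0.48 ± 0.08 and Sphk2, a sphingosine kinase, by 0.57 ± 0.09. Of the 8 tested genes of sphingomyelin and ceramide transfer, 3 rose and 4 fell, among them Smpd2, a neutral sphingomyelinase, at 0.59 ± 0.12, and Samd8 at -0.69 ± 0.16. In lysosomal breakdown 4 of 11 rose and 3 fell, with Galc, the galactosylceramidase, at -0.38 ± 0.13. Among the 10 genes that supply very long chain fatty acids 4 rose and 3 fell, with Elovl1, which makes the chains used by Cers2, at 0.84 ± 0.13 and Elovl6 at -0.77 ± 0.21. Of the 3 tested receptors of sphingosine 1-phosphate 0 passed. Under the correction for GC content and length Asah1 stood at -0.06, Samd8 at -0.01 and Elovl6 at -0.30, none of them called, and Galc turned to 0.60 and was called as higher (edgeR BH-adjusted p-value = 0.0378), while Sphk2 at 0.30, Smpd2 at 0.42, Elovl1 at 0.68 and B4galt5 at -1.05 kept their sign and passed.

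In IS + pNaKtide against oxLDL + pNaKtide, B4galt5 was higher by 0.86 ± 0.16 and Kdsr by 0.82 ± 0.15 (edgeR BH-adjusted p-value = 0.000612 for both). Asah1 was higher by 0.38 ± 0.08, while Sphk2 was lower by -0.31 ± 0.09 and Elovl3 by -0.50 ± 0.13. With the correction for GC content and length Asah1 stood at 0.06 and lost its call (edgeR BH-adjusted p-value = 0.573), while B4galt5 at 0.92, Kdsr at 0.34, Sphk2 at -0.15 and Elovl3 at -0.48 passed. Acer2, an alkaline ceramidase, was the 1 of 52 genes that passed in IS + pNaKtide against control, at 0.63 ± 0.12 (edgeR BH-adjusted p-value = 0.0344), and it was also higher with IS alone at 0.54 ± 0.12 (edgeR BH-adjusted p-value = 0.0359). With the correction these values were 0.55 and 0.45, and without control replicate 1 and IS replicate 4 they were 0.60 and 0.59, and all passed.

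For 4 members the genes with the most similar log2 CPM over the 30 libraries were sought among 12580 genes, as a description, since all points share their library. Cers6 ran with Tmem87b, Resf1 and Rc3h2 at Pearson correlations of 0.979, 0.978 and 0.977. Ormdl3 ran with Timm44 at 0.870, Mum1 at 0.839 and Mrfap1 at 0.836. Degs1 and Sptlc2, which varied little, reached 0.783 with Tmem9b and 0.714 with Acot10. Over the 45 pairs of members, correlations ran from -0.747 for Ormdl2 and Cers6 to 0.788 for Ormdl1 and Cers6.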

How the data were processed

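The deposited count table holds raw reads per gene, whole numbers that the authors made from reads trimmed in Trimmomatic 0.38 and mapped by HISAT2 2.1.0 on the GRCm38 build, with GenomicAlignments as the counter. No source used here gives the strand setting or annotation release. The deposited FPKM values were made by the authors from counts scaled by library and gene length. The table of normalised counts was not used. Ensembl identifiers were mapped to symbols with GENCODE vM21, which named 54165 of 54232 genes. Members and pathway lists were chosen with earlier results of these data known.

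The 6 groups were fitted together with edgeR 4.0.16 (R 4.3.3) quasi-likelihood tests after TMM scaling, for genes with more than 14 counts summed over the libraries, with BH adjustment over 20139 genes and a threshold of 0.1. Pathway genes were named as the smallest adjusted p-value in each direction per list and comparison; some are not reported here. The test planned for the difference between the pNaKtide changes was not used for the members, because that difference contains the contrast that chose them. Alternatives were DESeq2 1.42.0, limma 3.58.1 on log2(FPKM + 1), other scalings, filters and thresholds, a replicate block, offsets for GC content and length (mgcv 1.9.3), and the omission of libraries. The common biological coefficient of variation was 14.0%. On simulated counts for oxLDL against control (19866 genes), edgeR recovered 67 of 100 genes changed 1.5-fold and 99 of 100 changed 2-fold. Counting precision is limited by 6945498 to 15159877 counts per library. No pair of libraries of a group agreed within sampling noise (chi-square per degree of freedom at least 1.28 over 60 pairs). The closest pair was IS + pNaKtide replicates 3 and 4, followed by pNaKtide replicates 1 and 2 at 1.35 and 4 and 5 at 1.37. The other pNaKtide pairs ran from 13.4 to 17.2. The tests treat such close libraries as independent, which the labels do not establish.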

Additional observations from a re-analysis of the deposited data

Results flagged for a closer look

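Cers6 in replicate 4 of the IS group lay far from the other IS libraries, at 38.0 CPM against 79.2 CPM for the nearest. Ormdl3 in replicate 3 of the oxLDL + pNaKtide group lay far above its group, at 259.6 CPM against 204.1 CPM for the nearest. These were the 2 values set apart by Dixon's test among 60 groups of 5 libraries, and chance sets apart about 1 group in 20. The cause of these values was not tested.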

How the results depend on the processing

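Counts of called members that changed by over 1.5 times are given with the share of all genes called in the same setting. For IS + pNaKtide against oxLDL + pNaKtide (2 members, 34% of genes), library totals alone called 8 (39.2%), and GC content and length offsets 4 (25.5%), also 4 with the replicate block (26.8%). For IS + pNaKtide against control (0 members, 0.358%), DESeq2 called 1 (7.38%), the offsets 1 (2.14%), the offsets with the replicate block 2 (3.65%), and leaving out control replicate 1 and IS replicate 4 gave 3 (32.4%). For oxLDL + pNaKtide against control (0 members, 5.2%), the offsets called 1 (9.48%), also 1 with the block (10.8%). For IS against control (1 member, 7.94%), the replicate block called 2 (17%), a fit of the 2 groups alone 0 (0%), and leaving out both libraries 5 (45.4%). For oxLDL against control (3 members, 36%), an adjusted p of 0.05 left 1 (27.1%). There DESeq2 called 6 (38%), the offsets 6 (19.8%, and 22.2% with the block, also 6), library totals alone 5 (35.9%), filterByExpr 5 (51.9%), more than 14 counts in every library 5 (58%), limma on FPKM 5 (53.4%) and leaving out both libraries 5 (47.6%). For oxLDL + pNaKtide against oxLDL (3 members, 48.3%), library totals alone called 7 (51.5%) and the offsets 8 (37%, and 37.8% with the block, also 8). Leaving out 1 library at a time gave 1 to 4 members for IS + pNaKtide against oxLDL + pNaKtide (22.4% to 36.6% of genes), 0 to 3 for IS + pNaKtide against control (0.00993% to 26.7%), 0 to 4 for IS against control (0.0745% to 34.5%), 0 to 5 for oxLDL against control (24.7% to 45.9%) and 2 to 4 for oxLDL + pNaKtide against oxLDL (41.4% to 48.7%), with 0 throughout in the remaining comparisons. The highest counts against control came without control replicate 1, and for IS against control also without IS replicate 4. Scaling by library totals alone moved the median of all genes from -0.09 to -0.30 in oxLDL + pNaKtide against oxLDL and from 0.05 to 0.22 between the combined treatments. Under it the log2 fold change turned for Sptlc1 to 0.17, Cers2 to 0.13 and Degs1 to 0.16 between the combined treatments, and in oxLDL + pNaKtide against oxLDL for Sptlc1 to -0.15, Sptlc2 to -0.21, Cers2 to -0.065 and Degs1 to -0.17. Under the offsets Sptlc2 turned to -0.22 in oxLDL against control (-0.22 with the block) and Sptlc3 to 0.36 in oxLDL + pNaKtide against oxLDL (0.37 with the block). The causes were not tested. Uncalled values changed sign and stayed uncalled in 86 cases. Replicate numbers did not pair the libraries throughout: correlations of deviations ran from -0.66 to 0.74, above 0.1 in 23 of 45 pairs. All replicates of a comparison lay above 0.1 in 0 of 9 comparisons. Replicate 4 correlated at 0.58 to 0.74 in the comparisons among control, IS, oxLDL and oxLDL + pNaKtide. It stood at -0.33 to -0.31 in those with IS + pNaKtide, and at -0.01 for pNaKtide against control. Depth limits Ormdl1 most, with as few as 22 counts in a library.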
